A study of Rattus norvegicus with 19 samples.

Results

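Enhancers are stretches of regulatory DNA that raise transcription of genes at a distance, and active ones are themselves transcribed on both strands into short-lived enhancer RNAs (eRNAs). In a gene-poor stretch an enhancer has few candidate partners. In a gene-dense stretch many promoters lie within reach of the same element, and the nearest gene need not be its partner. The deposited table lists 27538 transcriptionally active putative enhancers (TAPEs), which are intergenic sites of open chromatin with RNA on both strands, and pairs each of them with genes whose start sites lie within 1000 kb of its centre. The gene-dense TAPEs described here are 1110 of 27538 (4.03%). They were paired with at least 40 distinct gene symbols and lay at least 10 kb from the nearest start site. The choice used position and no TAPE level. By its methods, the study had removed pairs whose gene had no count in any sample. Only genes with a count in these libraries were therefore counted. Another 470 TAPEs had as many genes but lay closer than 10 kb to a start site, and they serve as the closest comparison.

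Directional, ribosome-depleted total RNA-seq was run on primary cultures of Sprague-Dawley rat neurons. Cortex, hippocampus or striatum was taken at embryonic day 18, cultured for 11 days and exposed for 1 h to vehicle (Neurobasal medium) or to potassium chloride (KCl), which depolarizes neurons and switches on activity-induced genes. Vehicle and KCl gave 3 libraries each in cortex and in hippocampus, and in striatum 4 and 3, as the sample titles have it. The study's methods count the striatum libraries of each treatment the other way round, so every striatum KCl result rests on the titles. In gene profiles solved from the deposited correlations, described with the gene partners, every striatum library titled KCl was above every one titled vehicle for the activity-induced genes Nr4a1 and Fosb. The KCl concentration is 25 mM by the sample labels and 10 mM by the series text, which was not resolved. The cultures hold mixed cells of each region. Total RNA from a whole well cannot tell fewer cells of a type from less RNA per cell. Gene levels were not used here, so the presence of cell type markers could not be checked, and only the order of libraries could be had for the marker genes paired with a gene-dense TAPE. In that order every striatum library was above all others for Ppp1r1b and Drd1, markers of striatal projection neurons. Every striatum library was below all others for Neurod2 and Slc17a7, markers of pallial glutamatergic neurons. Pvalb, from the same list as Ppp1r1b and Drd1, overlapped in striatum. For the glial genes Gfap and Sox10, every striatum library lay below and every hippocampus library above all others. The glial genes Mog, Mag, Aif1 and Cnp overlapped in striatum. Mag went the other way in hippocampus, with every library there below all others, and Cnp had every cortex library above all others. Mog and Aif1 overlapped in all regions, so the glial genes had no common order. Nothing in the labels says which libraries came from separate cultures, so p-values measure the spread between these libraries only.

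The table gives TAPE positions on the Rn6 assembly, for which no genome was at hand, so TAPE sequences are not printed. Among the gene-dense TAPEs with the smallest p-values for KCl, 2 had an immediate early gene as both their nearest and their best-correlated gene. These genes are Nr4a1, an orphan nuclear receptor, and Fosb, a subunit of the AP-1 transcription factor. Their promoters are shown because the TAPEs beside them have the largest positive KCl changes of the class in striatum and hippocampus. Each line holds the 250 bases before the start from RefSeq (GRCr8 assembly), chr7:134259888-134260137 on the plus strand for Nr4a1 and chr1:88089185-88089434 on the minus strand for Fosb. Capitals mark TGACG or its complement CGTCA, the half-site of the cyclic AMP response element to which the activity-regulated factor CREB binds.
Nr4a1: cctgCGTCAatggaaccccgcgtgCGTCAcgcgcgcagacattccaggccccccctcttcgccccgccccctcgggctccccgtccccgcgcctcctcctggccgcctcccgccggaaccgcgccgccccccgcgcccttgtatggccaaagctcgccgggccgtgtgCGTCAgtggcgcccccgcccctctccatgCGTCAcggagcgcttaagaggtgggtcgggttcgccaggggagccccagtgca
Fosb: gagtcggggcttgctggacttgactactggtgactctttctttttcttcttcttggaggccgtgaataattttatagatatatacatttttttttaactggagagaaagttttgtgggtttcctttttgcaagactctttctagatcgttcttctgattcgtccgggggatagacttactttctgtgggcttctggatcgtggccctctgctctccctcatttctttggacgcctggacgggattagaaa
The Nr4a1 window held 4 matches and the Fosb window 0. Of 33469 rat promoters of this length, 18.2% held at least 1 match and 58 (0.173%) held 4 or more. A match is a string of letters and not a shown binding site, and its absence says only that these letters are not in the window.

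Library totals recovered from the table ran from 46.4 to 72.5 M reads. No 2 of the 19 libraries held identical values. Over the gene-dense TAPEs that were tested, log2 levels of 2 libraries correlated at 0.642 to 0.803 within a group, 0.542 to 0.768 between treatments of a region and 0.348 to 0.647 between regions. The title of cortex vehicle replicate 3 calls it cortical, but its tissue label calls it striatal. Over 890 region-dependent TAPEs chosen without it, its profile correlated at 0.875 with the other cortex libraries and at 0.384 with striatum. It was kept as cortex, and the cortex KCl counts, the named cortex changes and the region counts are also given without it.

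The level of a TAPE is its CPKM, the reads per kilobase of TAPE and per 1e6 reads of the library. Gene-dense TAPEs were transcribed at a low level, with a median mean CPKM of 0.00949 and a highest of 0.764. The median of the remaining 26428 TAPEs was 0.00699, and that of the gene-dense TAPEs close to a start site was 0.0146. The median gene-dense TAPE held 20 reads summed over all 19 libraries, and 57.9% had no read in at least 10 of them. A mean CPKM of at least 0.05, needed to enter a test, was reached by 142 gene-dense TAPEs (12.8%), by 6.54% of all other TAPEs and by 23.2% of the gene-dense TAPEs close to a start site. Those 142 held 64.8% of the reads of the 1110, and the 10 best transcribed held 18.0%. Every count of called TAPEs therefore speaks for the better transcribed minority.

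**Figure D1:**
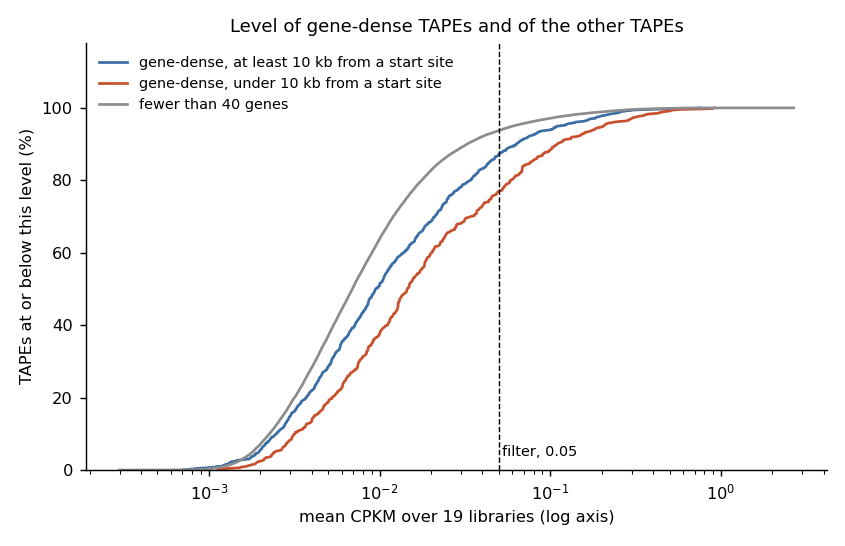
Cumulative share of TAPEs (y axis, percent) by mean CPKM over 19 libraries (x axis, log scale), for the 1110 gene-dense TAPEs at least 10 kb from a start site, the 470 closer ones, and TAPEs with fewer than 40 genes; the dashed line is the filter of 0.05. The medians of the gene-dense classes are 0.00949 and 0.0146, and the closer ones lie to the right over most of the range.

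Crowding within the class went with little difference in level. Median CPKM was 0.00948 for the 601 gene-dense TAPEs with 40 to 49 genes, 0.00951 for the 307 with 50 to 59 and 0.00968 for the 202 with 60 or more. Distance to the nearest start site went with a larger difference, from a median of 0.0106 at 10 to 20 kb (376 TAPEs) to 0.007 at 100 kb or more (88 TAPEs). Genes lay thickly around these TAPEs. The median nearest start site was 28 kb away, and a median of 4 genes lay within 100 kb, against 1 for all other TAPEs. At the edges of the rule, the 69 TAPEs with exactly 40 genes had a median of 0.00786 and the 62 otherwise eligible TAPEs with 39 genes had 0.00947. The 45 members at 10 to 11 kb had a median of 0.0154 and the 63 excluded TAPEs at 9 to 10 kb had 0.0145.

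The 1110 TAPEs fell into 79 neighbourhoods, counting TAPEs less than 1 Mb from the next as one neighbourhood. Every neighbourhood held more than 1 of them, and together they were paired with 5789 gene symbols, of which the median gene was shared by 9 gene-dense TAPEs. Members of a neighbourhood thus share genes and are not independent of each other. Chromosome 10 carried 197 of them, which is 17.3% of its TAPEs, ahead of chromosome 7 (149), chromosome 1 (147) and chromosome 3 (113). The largest neighbourhood was chr10:84747627-91240391 with 59 TAPEs and 228 genes, among them 23 keratin genes, which encode intermediate filaments of epithelia and hair. Its median TAPE level was 0.00833 CPKM, and 6 of its TAPEs were tested. The next was chr7:139776140-144790500 with 46 TAPEs and 17 keratin genes. It also holds Nr4a1, and 5 of its TAPEs were tested.

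The neighbourhood with the third most members was chr18:29852964-31505313, which holds 36 gene-dense TAPEs and 38 genes of the protocadherin family, cell adhesion molecules whose clustered members give single neurons distinct surface identities. Its median level was 0.0231 CPKM, and 8 of its TAPEs were tested. The last of the 5 largest were chr10:14714764-16146407, with 35 TAPEs (6 tested), and chr3:8065888-9606393, with 33 TAPEs (2 tested). Several gene families that lie in clusters were within reach of such TAPEs. At least 1 gene-dense TAPE was paired with 33 of the 34 histone genes in the table, 42 of 47 keratins, 27 of 29 MHC genes and 38 of 47 protocadherins, against 32.7% of all gene symbols. Olfactory receptor genes, also clustered, reached 37 of 171. These shares follow from position, among genes with a count in any sample, and are not a measure of TAPE transcription.

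The 8 gene-dense TAPEs with the highest mean CPKM had 0.300 to 0.764, and lay 10.9 to 86.2 kb from their nearest genes. The first of them, chr3:149027740-149030218, lay 86.2 kb from Commd7. It had 0.707 to 0.968 CPKM in the 6 cortex libraries (median 0.832), 0.913 to 1.10 in the 6 hippocampus libraries (median 0.954) and 0.464 to 0.599 in the 7 striatum libraries (median 0.491). Every striatum library lay under every library of the other regions, and the level differed by region (limma F-test, adjusted p = 3.4e-07). The second, chr10:62953394-62956822, lay 26.2 kb from Efcab5, and had medians of 0.725 in cortex, 0.554 in hippocampus and 0.805 in striatum (adjusted p = 0.0146). The third, chr7:70271182-70274492 near Ctdsp2, also depended on region and returns among the KCl results. The other 5 were not called for region, with adjusted p-values from 0.289 to 0.897. They lay near Desi1, Zfp362, Mga (a MAX-binding transcription factor) and Eif1ad, 2 of them near Desi1. The Desi1 pair, chr7:123233442-123234827 and chr7:123229494-123231824, stood 3.48 kb apart, and their log2 levels correlated at -0.52 over the 19 libraries. The 3 TAPEs with the most genes lay together on chromosome 7 near Atp8b3 and Tcf3, with 112 to 114 genes, and held 3 to 33 reads each, too few to be tested.

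KCl against vehicle asks which of these elements respond to 1 h of depolarization. In cortex 0 of the 142 tested gene-dense TAPEs passed an adjusted p of 0.05 (limma), where 0.321% of all 1870 tested TAPEs did. At an unadjusted p under 0.05, 16 of 142 passed, against 10.4% of all. Of these, 6 were higher with KCl (3.9% of all TAPEs) and 10 lower (6.52%). Without cortex vehicle replicate 3, 11 passed (8.13% of all), and the balance turned to 9 higher (3.85%) and 2 lower (4.28%). It also turned, to 9 and 8, without cortex KCl replicate 1 (76 and 121 of all 1870 TAPEs). Without cortex KCl replicate 3 it was 8 and 6 (63 and 122 of all). The few gene-dense TAPEs thus gave no stable direction in cortex, while over all TAPEs more were lower in each of these fits. In hippocampus 0 of 142 passed the adjusted test, against 0.0535% of all, and 20 passed unadjusted (13.3% of all), 1 higher (3.1%) and 19 lower (10.2%). limma voom on the recovered reads called 0 in cortex (0.374% of all TAPEs), 0 in hippocampus (0.0535%) and 6 in striatum (1.82%), 2 higher and 4 lower. In striatum 4 of 142 passed the adjusted test, against 1.23% of all, 1 higher (0.802% of all) and 3 lower (0.428%). Unadjusted, 32 passed in striatum (15.1%), 6 higher (3.32%) and 26 lower (11.8%). With each library centred on its median over tested TAPEs, 1 was called in hippocampus (0.214% of all TAPEs) and 3 in striatum (1.23%), 2 of these higher and 1 lower. The unadjusted splits then became 9 higher and 6 lower in cortex (5.29% and 4.81% of all), 3 and 5 in hippocampus (5.94% and 4.65%), and 9 and 18 in striatum (6.2% and 6.58%).

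The called increase was at chr7:142890056-142891915, 14.8 kb from the start of Nr4a1. In striatum its 4 vehicle libraries had 0.0852, 0.0650, 0.0649 and 0.0743 CPKM, and its 3 KCl libraries had 0.406, 0.317 and 0.598. Every KCl library exceeded every vehicle library. The log2 change was 1.97 (SE 0.25, adjusted p = 0.0019, limma). Without striatum KCl replicate 7 the adjusted p was 0.068, and without each other library it stayed under 0.05. In cortex the vehicle libraries had 0.155, 0.104 and 0.0719, and the KCl libraries 0.220, 0.298 and 0.252. They did not overlap either, but the change of 0.96 (SE 0.29) was not called (adjusted p = 0.207), and without cortex vehicle replicate 3 it was 0.78 (adjusted p = 0.527). In hippocampus vehicle gave 0.0951, 0.102 and 0.0779 and KCl 0.122, 0.0759 and 0.152. There the groups overlapped, with a change of 0.21 (adjusted p = 0.766). The limma test of whether the KCl effect differed between regions gave an unadjusted p of 0.00033 and an adjusted p of 0.153.

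Another TAPE of this neighbourhood, chr7:142879678-142882218, lay 11.2 kb from Grasp, which encodes a scaffold protein of group 1 metabotropic glutamate receptors. In cortex its vehicle libraries had 0.0947, 0.114 and 0.0702 CPKM and its KCl libraries 0.339, 0.318 and 0.144. In striatum vehicle gave 0.229, 0.0793, 0.149 and 0.272, and KCl 0.505, 0.457 and 0.385. KCl lay above vehicle without overlap in both. The changes were 1.09 in cortex (SE 0.32, adjusted p = 0.207, and 0.474 without cortex vehicle replicate 3) and 1.18 in striatum (SE 0.28, adjusted p = 0.066). With centred libraries the striatum change was called (adjusted p = 0.012). In hippocampus vehicle had 0.181, 0.332 and 0.242 and KCl 0.193, 0.153 and 0.249, a change of -0.27. These groups overlapped.

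The gene-dense TAPE beside Fosb, chr1:80230915-80233062, lay 10.3 kb from its start. In hippocampus its vehicle libraries had 0.0906, 0.144 and 0.0506 CPKM and its KCl libraries 0.326, 0.320 and 0.295, a change of 1.38 (SE 0.27, unadjusted p = 0.00076, adjusted p = 0.155). The groups stood apart, and the call depended on processing, with adjusted p = 0.026 after centring, 0.047 with a filter of 0.1 CPKM and 0.045 in 1 fit of all 6 groups. In cortex vehicle gave 0.0523, 0.0963 and 0.0692 and KCl 0.201, 0.360 and 0.109 (change 1.07, adjusted p = 0.260, and 0.50 without cortex vehicle replicate 3). In striatum vehicle gave 0.180, 0.141, 0.161 and 0.129 and KCl 0.580, 0.197 and 0.170. There 1 KCl library stood far above the rest and 1 lay among the vehicle libraries (change 0.69, adjusted p = 0.333).

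**Figure D2:**
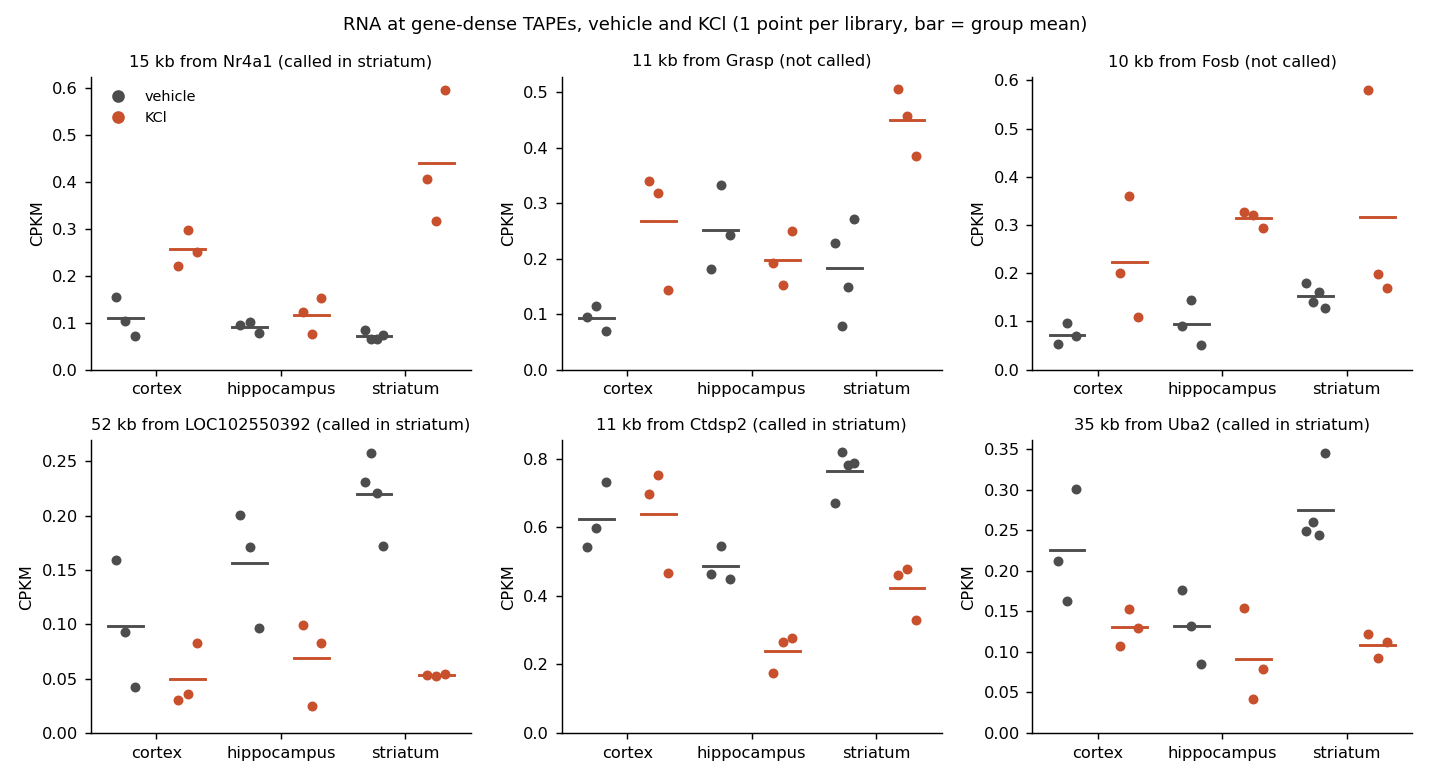
CPKM of 6 gene-dense TAPEs (y axis, starting at 0) in vehicle and KCl libraries of cortex, hippocampus and striatum (x axis); each point is 1 library and each bar a group mean. The TAPEs near Nr4a1, Grasp and Fosb have higher KCl means in cortex and striatum, and the 3 others have lower KCl levels in striatum.

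Other gene-dense TAPEs lay near both immediate early genes, and they were chosen for this description after their values were seen. Counting those described above, there were 5 within 50 kb of the Nr4a1 start, at 14.8, 20.2, 21.9, 24.8 and 49.6 kb. Their correlations to Nr4a1 were 0.88, 0.58, 0.65, 0.74 and -0.06. The one at 24.8 kb is the TAPE described above near Grasp. The farthest held 12 reads in all, and the one at 21.9 kb held 67 and was not tested. The one at 20.2 kb had means of 0.0722 with vehicle and 0.148 with KCl in cortex, and 0.0562 and 0.113 in striatum (adjusted p = 0.369 in striatum). Around Fosb, gene-dense TAPEs at 10.3 (described above), 17.1 and 23.4 kb correlated with it at 0.65, 0.51 and 0.58. The changes at 17.1 kb were 0.66, 0.08 and 0.22 in cortex, hippocampus and striatum, and those at 23.4 kb were 0.43, 0.45 and 0.50, none of them called.

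The 3 called decreases in striatum were at TAPEs beside other kinds of gene. The largest was at chr3:9160120-9162937, 52.3 kb from LOC102550392. Its striatum vehicle libraries had 0.231, 0.257, 0.220 and 0.172 CPKM and its KCl libraries 0.0536, 0.0523 and 0.0544, so that the groups stood far apart. The log2 change was -1.38 (SE 0.25, adjusted p = 0.022, limma). Its best-correlated gene was Dolk, which encodes dolichol kinase of the glycosylation pathway, at 309 kb (r = 0.67). The second was at chr7:70271182-70274492, 10.9 kb from Ctdsp2, a phosphatase of the RNA polymerase II tail, and among the best transcribed of the class. Striatum vehicle had 0.670, 0.821, 0.782 and 0.788, and KCl 0.462, 0.479 and 0.330 (change -0.80, SE 0.17, adjusted p = 0.037). Hippocampus, with 0.465, 0.546 and 0.449 in vehicle and 0.174, 0.266 and 0.277 in KCl, gave -0.91 (SE 0.20), which was not called (adjusted p = 0.155). Cortex libraries overlapped, with 0.542, 0.600 and 0.731 in vehicle and 0.696, 0.752 and 0.468 in KCl.

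The third decrease was at chr1:89998442-90001839, 35.4 kb from Uba2, a subunit of the SUMO-activating enzyme. Its striatum vehicle libraries had 0.249, 0.261, 0.244 and 0.346 CPKM and its KCl libraries 0.122, 0.0922 and 0.113, with no overlap. The change was -1.02 (SE 0.22, adjusted p = 0.040). All 3 decreases lost their call when any 1 of the 7 striatum libraries was left out, with adjusted p from 0.055 to 0.176. With centred libraries the decrease near LOC102550392 was called (adjusted p = 0.023), and those near Ctdsp2 (0.084) and Uba2 (0.091) were not. In hippocampus, the third smallest p belonged to chr18:31256971-31258932, 85.8 kb from Pcdh1, a protocadherin. Vehicle had 0.171, 0.123 and 0.139 and KCl 0.0446, 0.0539 and 0.0340, which did not overlap, and the change of -1.04 (SE 0.27) was not called (adjusted p = 0.186).

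Over the 142 tested gene-dense TAPEs, cortex had a median log2 change of -0.14, hippocampus -0.20 and striatum -0.22, beside -0.09, -0.16 and -0.17 over all tested TAPEs. Negative values were found for 93 of 142 in cortex (65.5%, and 59.5% of all TAPEs), 97 in hippocampus (68.3% and 65.9%) and 107 in striatum (75.4% and 67.1%). Centring the libraries shifted the median of all TAPEs by 0.07, 0.17 and 0.14, so that changes are best read relative to these medians. After centring, negative values were left for 84 gene-dense TAPEs in cortex (59.2%, and 51.9% of all), 75 in hippocampus (52.8% and 49.7%) and 85 in striatum (59.9% and 53.7%). Without cortex vehicle replicate 3 the cortex median was -0.05 for both sets, with 79 negative (55.6%, and 54.3% of all). The change was negative in all 3 regions for 68 of 142 (47.9%, and 32.4% of all tested TAPEs), and positive in all 3 for 14 (9.86% and 8.07%). With centred libraries these were 40 (28.2% and 19.5%) and 24 (16.9% and 16.2%). No p-value was computed for these shares. A KCl effect that differed between regions was called for 0 of 142 gene-dense TAPEs, against 0.0535% of all, with 10 at an unadjusted p under 0.05 (8.24% of all).

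**Figure D3:**
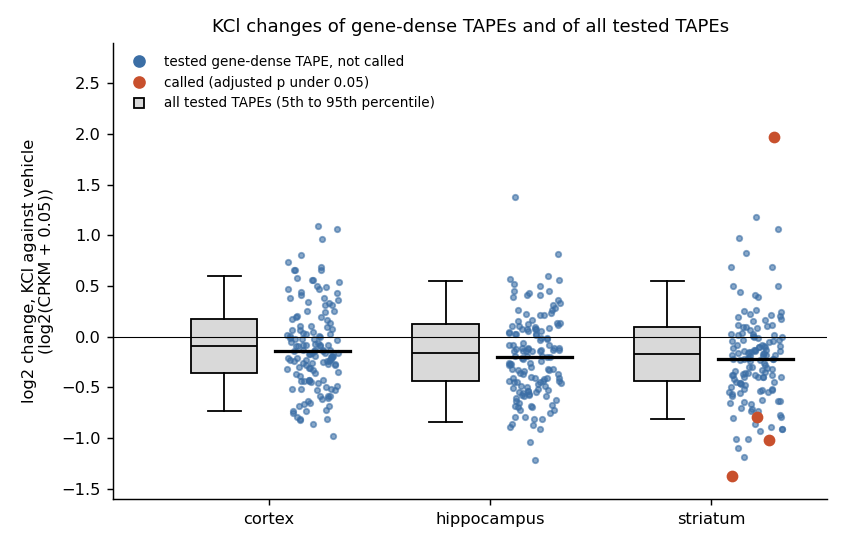
Log2 change with KCl (y axis, on log2(CPKM + 0.05)) in each region (x axis); points are the 142 tested gene-dense TAPEs with their median as a bar, and grey boxes are all 1870 tested TAPEs with whiskers from the 5th to the 95th percentile. The 4 called TAPEs, in the second colour, are all in striatum, with 1 above 0 and 3 below.

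The share of all TAPE reads that fell in gene-dense TAPEs gave another view of the same libraries. It was 6.26% ± 0.157 with vehicle and 6.22% ± 0.234 with KCl in cortex (SD, n = 3 each), and these ranges overlapped. In hippocampus it was 6.80% ± 0.278 and 6.22% ± 0.123 (n = 3 each), with vehicle from 6.53% and KCl up to 6.31%. In striatum it was 6.83% ± 0.139 (n = 4) and 6.28% ± 0.0871 (n = 3), with vehicle from 6.74% and KCl up to 6.36%. Vehicle and KCl libraries did not overlap in hippocampus or striatum. They also did not overlap without the 4 TAPEs called in striatum, where the means were 6.57% and 6.08% in hippocampus and 6.48% and 6.02% in striatum.

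Region dependence was called for more gene-dense TAPEs than a KCl response. Both treatments pooled, 51 of 142 gene-dense TAPEs (35.9%) differed between regions (limma F-test, adjusted p under 0.05), against 48.8% of all tested TAPEs. The share was 37.6% in gene-dense TAPEs close to a start site and 51.7% in other TAPEs at least 10 kb away. Without cortex vehicle replicate 3, 50 gene-dense TAPEs were called (890 of all 1870). Without a filter on level, 79 of 1110 gene-dense TAPEs and 2026 of all 27538 were called, which are close shares. Among the 142, 20 were selective for striatum (14.1%, and 16.7% of all tested TAPEs), which means called and higher there than in each other region. Hippocampus had 11 (7.75% and 6.74%) and cortex 2 (1.41% and 5.67%). As shares of the region-dependent TAPEs these were 39.2%, 21.6% and 3.92%, beside 34.3%, 13.8% and 11.6% of the 912 called over all TAPEs. Another 6 were low in striatum, 4 low in hippocampus, 2 low in cortex, and 6 had no single pattern. Over all tested TAPEs these last patterns were not counted, so their numbers have no background. No test compared the shares of gene-dense TAPEs with those of all tested TAPEs.

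The clearest striatum-selective TAPE was chr8:62262656-62264523, 15.6 kb from Scamp5, which encodes a membrane protein of secretory vesicles. It had 0.316 to 0.690 CPKM in striatum (median 0.499, n = 7), 0.0391 to 0.135 in cortex (median 0.0700, n = 6) and 0.0189 to 0.116 in hippocampus (median 0.0376, n = 6). Every striatum library lay above every other library. The difference to the next region was 2.06 on the log2 scale (SE 0.24), and the level depended on region by the limma test across all TAPEs (adjusted p = 6.7e-10). The TAPE chr8:116118656-116121742, 27.4 kb from Hemk1, had 0.0538 to 0.302 in striatum (median 0.131), up to 0.0436 in cortex and up to 0.0340 in hippocampus (adjusted p = 6.9e-06). Its striatum libraries also lay above all others, and its KCl change in striatum was -1.10 (adjusted p = 0.097). The TAPE chr1:81071628-81073783 near the zinc finger gene Zfp111 had medians of 0.189, 0.0876 and 0.316 in cortex, hippocampus and striatum (adjusted p = 4.1e-07). The TAPE chr6:26192007-26194046 near Slc4a1ap had medians of 0.0154, 0.00422 and 0.0846 (adjusted p = 1.1e-05), and a KCl change in striatum of 0.97 (adjusted p = 0.148). Its mean over all libraries was 0.0521 CPKM. The filter took that mean, so a TAPE high in 1 region could enter the test by that region alone. The TAPEs near Hemk1 and Slc4a1ap entered only through striatum.

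The leading hippocampus-selective pair lay in the stretch beyond Vegfa, the vascular endothelial growth factor gene, at 136127 and 144077 bp from its start. The TAPE chr9:17475704-17477233 had 0.275 to 0.501 CPKM in hippocampus (median 0.381), 0.0180 to 0.0734 in cortex and 0.0263 to 0.184 in striatum (adjusted p = 8.7e-09). The TAPE chr9:17483766-17485070 had 0.243 to 0.884 in hippocampus (median 0.507), 0.0228 to 0.135 in cortex and 0.141 to 0.232 in striatum (adjusted p = 1.6e-08). In both, every hippocampus library lay above all others. The pair stood 7.95 kb apart and correlated with each other at 0.83, while neither followed Vegfa (r = -0.05 and -0.03). The TAPE chr11:86922892-86927562 near Zdhhc8, a palmitoyltransferase gene, had medians of 0.222, 0.377 and 0.0987 in cortex, hippocampus and striatum (adjusted p = 5.7e-07), and chr1:82360563-82361954 near Ceacam1 had 0.127, 0.206 and 0.0434 (adjusted p = 6.4e-05). In both, striatum had the lowest median.

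Only 2 tested gene-dense TAPEs were selective for cortex. The first was chr1:197634624-197637218, 23.3 kb from the kinase gene Sbk1, with 0.218 to 0.377 CPKM in cortex (median 0.301), 0.0597 to 0.161 in hippocampus and 0.142 to 0.247 in striatum (adjusted p = 3.1e-05, and 2.3e-05 without cortex vehicle replicate 3). The second was chr2:198093192-198095729 near Plekho1, with 0.0253 to 0.156 in cortex (median 0.0973), 0.00697 to 0.0339 in hippocampus and 0.0227 to 0.0545 in striatum (adjusted p = 0.0014, and 0.0041 without that replicate). In both, cortex libraries overlapped with those of another region. The TAPE near Plekho1 had a mean of 0.0503 CPKM over all libraries, and only its cortex level brought it past the filter. The median difference to the next region was 0.67 for the 20 striatum-selective TAPEs (0.49 to 2.06) and 0.68 for the 11 of hippocampus (0.48 to 1.47). Each library of the region lay above all others in 4 of the 142 for striatum (2.82%, and 4.87% of all tested TAPEs), in 4 for hippocampus (2.82% and 2.83%) and in 0 for cortex (1.5% of all). The 20 lay in 15 neighbourhoods on 8 chromosomes, and the 11 in 9 neighbourhoods. The nearest gene correlated above 0.5 with its TAPE in 4 of the 20 and 2 of the 11.

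**Figure D4:**
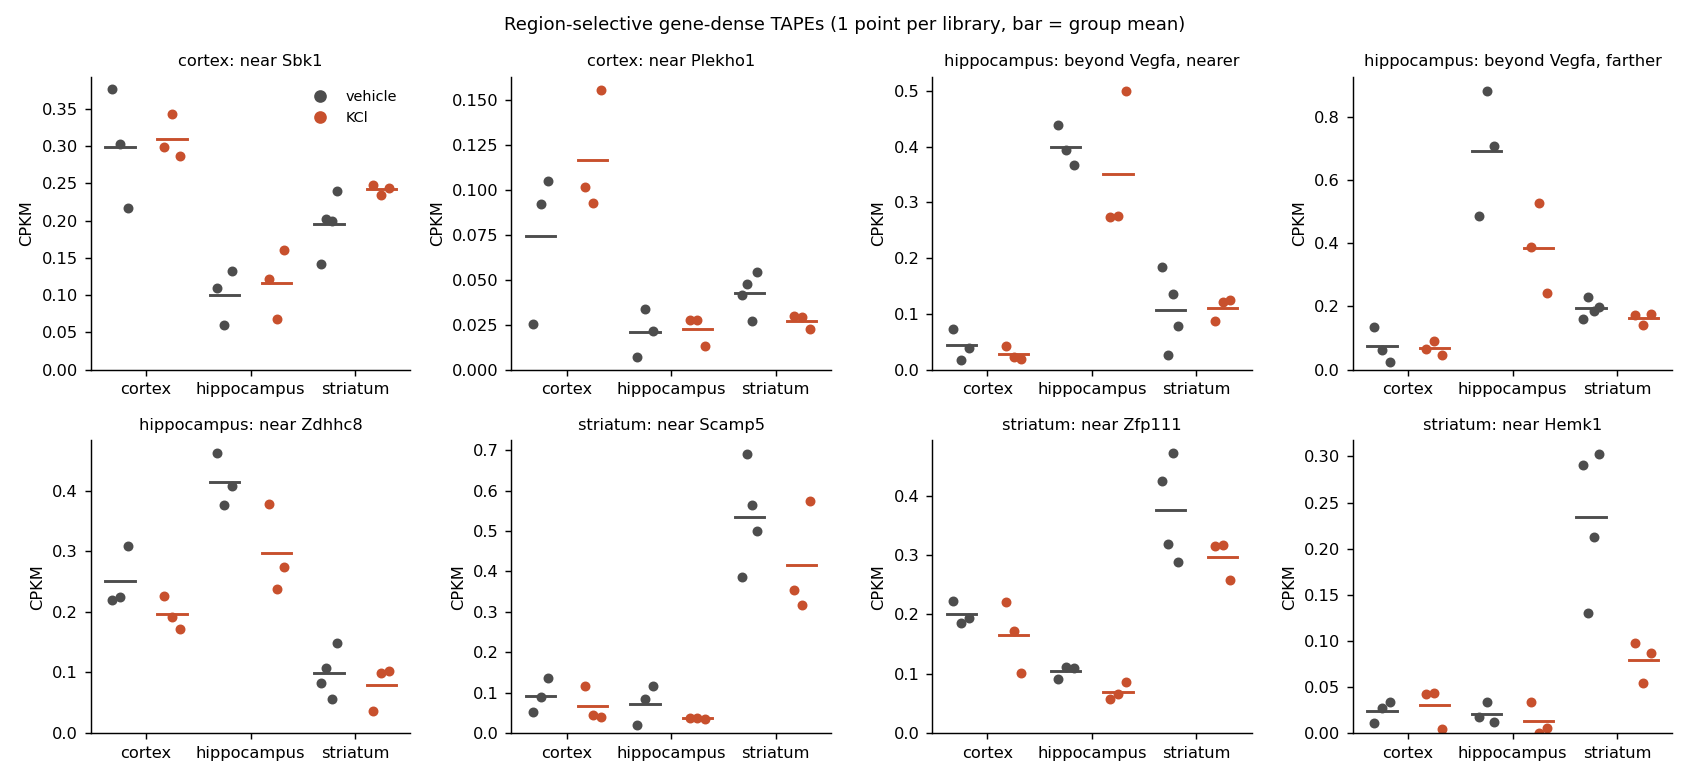
CPKM (y axis, starting at 0) of 8 region-selective gene-dense TAPEs in vehicle and KCl libraries of the 3 regions (x axis); each point is 1 library and each bar a group mean. The striatum libraries of the TAPE near Scamp5 (0.316 to 0.690) lie above all others, as do the hippocampus libraries of both TAPEs beyond Vegfa.

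Neighbouring gene-dense TAPEs were only loosely alike. Of tested TAPEs next to each other on a chromosome, 31 pairs stood under 20 kb apart and had a median correlation of log2 CPKM of 0.39 over the 19 libraries, from -0.62 to 0.83, with 11 above 0.5. Windows overlapped, and so share reads, in 4 of these pairs (r from 0.41 to 0.79, 3 above 0.5), and the other 27 had a median of 0.31 with 8 above 0.5. From 20 kb to 1 Mb, 48 pairs had a median of 0.11 with 6 above 0.5, and at 1 Mb or more 45 pairs had 0.09 with 4 above 0.5. All pairs share the same libraries and so their region differences. One neighbourhood, chr1:78242442-82386434, named after its values were seen, had 7 region-dependent TAPEs among 10 tested.

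Gene partners were described by the deposited correlation of TAPE and gene CPKM over all 19 libraries, which carries region and treatment differences alike. The median gene-dense TAPE reached a best r of 0.562, and 733 of 1110 (66.0%) had at least 1 gene above 0.5. In the 24912 TAPEs with fewer genes or closer genes, but more than 1 gene, these were 0.414 and 33.1%. More genes give more chances for a high value, and per pair the shares were alike, at 4.84% of 57682 pairs above 0.5 beside 5.39%. A single best gene was often not distinct, since a median of 3 genes lay within 0.1 of the best r, and 301 of 1110 had a single such gene. The 1110 best genes were 947 different symbols, of which 814 were best once and the most frequent 4 times.

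The nearest gene was the best-correlated one for 36 of 1110 gene-dense TAPEs (3.24%, exact 95% interval 2.28 to 4.46, which treats TAPEs that share genes as independent). If the correlations of each TAPE were shuffled among its own genes, the mean would be 2.01%. For gene-dense TAPEs close to a start site the values were 4.26% and 1.88%. For the 24912 other TAPEs with more than 1 gene they were 16.9% and 13.6%. TAPEs with a single gene were left out, since their nearest gene is their best by definition. The best gene was among the nearest 5 in 13% (10.0% by shuffle) and in the nearest 25% of the genes in 29.6% (25.7%). With the genes of a TAPE cut into 10 parts by distance, the nearest part held the best gene in 12.9% (9.83% by shuffle) and the other 9 parts held it in 8.56% to 11.0% (9.62% to 10.5% by shuffle). The median best gene was the 23rd by distance among a median of 48 genes. Correlations within 1 region, over 6 or 7 libraries, gave 3.65% in cortex (shuffle 2.08%), 2.28% in hippocampus (2.09%) and 3.03% in striatum (2.12%). These shares are of the 1015, 964 and 956 gene-dense TAPEs that had such correlations.

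Mean r of TAPE-gene pairs was 0.0379 within 100 kb, and in the other 9 bins of 100 kb it ran from 0.0049 to 0.0210 with no steady fall, the latter at 700 to 800 kb. For all other TAPEs it was 0.0620 in the first bin. Correlations within 1 region had their highest bin elsewhere in cortex (0.0277 at 600 to 700 kb, 0.0108 in the first) and hippocampus (0.0290 at 800 to 900 kb, 0.0168 in the first), and in striatum the first bin had 0.0301. Each bin of 100 kb held 4.5 to 5.9 genes per gene-dense TAPE. Among the 142 well transcribed gene-dense TAPEs the nearest gene was best for 8 (5.63%, shuffle 2.02%), and the best gene lay in the nearest 25% of the genes for 39.4% (25.7%). Within single regions the nearest gene was best for 2.82% of them in cortex (shuffle 2.08%), 2.82% in hippocampus (2.10%) and 0.704% in striatum (2.11%), which are 4, 4 and 1 TAPEs. By reads, the share was 3.03% for TAPEs with fewer than 10 reads, 3.85% for 10 to 29, 1.77% for 30 to 99 and 4.79% for 100 or more. The 8 pairs, named after their values were seen, were with Nr4a1 (r = 0.88), Zfp629 (0.87), Adam11 (0.83), Efcab5 (0.68), Fosb (0.65), Wdr73 (0.50), Ikzf4 (0.47) and Gng13 (0.45).

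**Figure D5:**
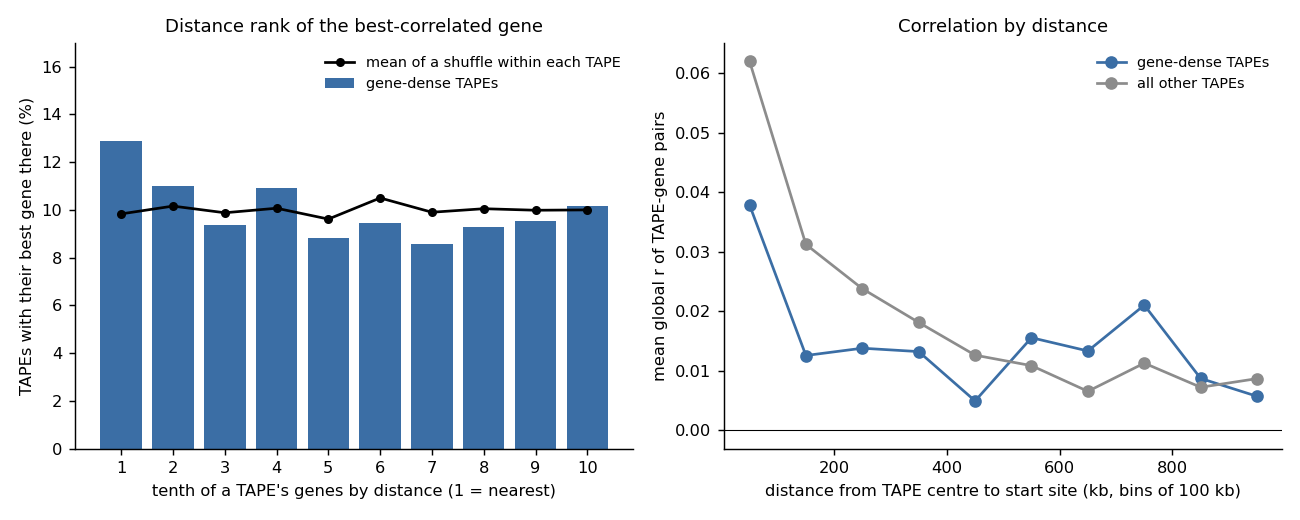
Left, share of the 1110 gene-dense TAPEs (y axis, percent) whose best-correlated gene lies in each of 10 equal parts of their genes by distance (x axis, 1 is nearest), with the mean of a shuffle within each TAPE as points; right, mean r of TAPE-gene pairs (y axis) by distance in bins of 100 kb (x axis). The nearest part holds 12.9% against 9.83% by shuffle, and mean r is 0.0379 in the first bin of gene-dense TAPEs.

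The TAPE near Nr4a1 followed that gene in cortex (r = 0.92) and striatum (0.92) and less in hippocampus (0.48), with a Spearman correlation of 0.65 over all libraries and 0.859 to 0.913 when each library was left out. The TAPE near Grasp followed it at 0.87 (0.88, 0.43 and 0.92 within cortex, hippocampus and striatum) and the nearest gene, LOC103692984 at 10.6 kb, at 0.04. The TAPE near Fosb followed Fosb at 0.71, 0.97 and 0.60 within the regions, and at 0.520 without striatum KCl replicate 1. Gene profiles could be solved from the correlations for 5605 of 5789 genes, and give the order of libraries but no fold. In these, every KCl library was above every vehicle library of its region for Nr4a1 and Fosb in all 3 regions, and for Grasp in cortex and striatum. Partners of the falling TAPEs were less uniform. Zbtb39, 764 kb from the Ctdsp2 TAPE (r = 0.83), and Pdcd2l, 57.8 kb from the Uba2 TAPE (r = 0.74), had all KCl libraries under all vehicle libraries in cortex and striatum, Dolk overlapped in striatum, and Uba2 overlapped in every region.

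The 5 highest correlations of tested gene-dense TAPEs were with distant genes. They were Clk3, a kinase of splicing factors (r = 0.94, 279 kb from the Scamp5 TAPE), Axl, a receptor tyrosine kinase (0.91, 214 kb), Pacsin2, an adaptor in endocytosis (0.90, 471 kb), Lrrc74b (0.90, 509 kb) and Ttll9 (0.89, 590 kb). By distance these genes ranked from 16 to 31 in their TAPEs. The Axl TAPE was chr1:82365432-82367135, low in striatum, and the Pacsin2 TAPE was chr7:123843746-123848659, highest in hippocampus. With each library left out the 5 correlations stayed between 0.879 and 0.966. All 5 TAPEs differed between regions, and within regions their correlations ran from -0.36 to 0.83. How much of the values over all libraries comes from differences between regions was not tested. Over all gene-dense pairs that could be solved, 1274 of 2756 with r above 0.5 (46.2%) stayed above it without each library.

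Of 50 activity-induced genes in a fixed list, 19 lay within reach of a gene-dense TAPE and 15 of a tested one, and 6 reached r above 0.5 with at least 1. Beside Nr4a1 and Fosb these were Fosl2, an AP-1 subunit (0.79 at 539 kb), Klf2 (0.62), Jund (0.54 at 14.1 kb) and Dusp1 (0.50), those of Klf2 and Dusp1 with TAPEs of 3 and 6 reads. Npas4, Arc, Junb and Per1, all of them immediate early genes, reached at most 0.10, 0.15, 0.27 and 0.36. A gene paired with more TAPEs has more chances to pass 0.5, and the median gene was paired with 9 gene-dense TAPEs. The share of all 5789 paired genes that pass with at least 1 TAPE was not computed. Counts of genes, here and for the lists below, therefore have no background. Of the pairs of this list with tested gene-dense TAPEs, 8 of 31 had r above 0.5 (25.8%), beside 8.90% of all their pairs. Of these 8, Nr4a1 and Fosb gave 6, and the remaining genes had 2 of 23. Over all gene-dense TAPEs, tested or not, the list had 6.63% of 196 pairs above 0.5, beside 4.84%. For glial genes, 22.2% of the 9 pairs with tested TAPEs passed it, and 5.56% of the 54 pairs with all gene-dense TAPEs. Of 33 striatal and GABAergic genes 3 were in reach, and 1 passed 0.5, Ppp1r1b, which encodes the dopamine-regulated phosphatase inhibitor DARPP-32 (0.87 at 443 kb, with an untested TAPE of 0.0420 CPKM). Drd1, the D1 dopamine receptor gene, reached 0.43. Of 21 pallial glutamatergic genes 2 were in reach, Neurod2 (0.47) and Slc17a7, the vesicular glutamate transporter gene (0.31). Of 18 glial genes 6 were in reach and 3 passed 0.5, the astrocyte filament gene Gfap (0.74 at 295 kb), the oligodendrocyte lineage gene Sox10 (0.54 at 35 kb) and the myelin gene Mag (0.54). The Mag value is with the TAPE near Uba2 that fell with KCl in striatum, 639 kb away, while the tested gene-dense TAPE nearest to Mag correlated with it at -0.58. The part of glial cells in the levels was not tested.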

How the data were processed

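Total RNA-seq of 19 libraries in 6 groups was analysed, with groups taken from sample titles. Per the labels, reads were trimmed with Trim Galore 0.4.5, checked with FastQC and handled with SAMtools 1.9, on the Rn6 assembly. By the study's methods, reads were aligned with STAR and counted per TAPE in SeqMonk without regard to strand. The deposited TAPE values are RPKM (called CPKM), not log transformed. The deposited correlation scores are Pearson r of TAPE and gene CPKM, as the authors computed them for all libraries and for each region. Distances run from TAPE centre to gene start, as deposited. Whole reads were recovered for 100.0% of values. Both mates were counted, so 2 reads are often 1 fragment, and reads without molecular identifiers are not independent molecules. After removal of 872 repeated TAPE-gene lines, 387733 pairs remained.

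The 1870 of 27538 TAPEs that reached a mean CPKM of 0.05 were tested on log2(CPKM + 0.05), which understates changes of low TAPEs, with limma 3.58.1 (lmFit, eBayes with trend, two-sided) in R 4.3.3. P-values were Benjamini-Hochberg adjusted over all 1870. KCl was tested within each region's libraries, region dependence by an F-test with treatments pooled, and their interaction over all groups. A TAPE selective for a region passed the F-test and exceeded both other regions with pairwise p under 0.05. A count test was replaced by limma because values are normalized, and limma voom on recovered reads was an alternative. The mean of a shuffle of r within each TAPE was computed exactly as 1 over its number of genes. Python 3.11.15, numpy 2.4.6, pandas 2.3.3, scipy 1.17.1 and matplotlib 3.10.9 were used, and the limma steps were tested on simulated data. The members, gene lists and tests were chosen with earlier results of these data known. Named TAPEs were the 8 of highest level, those with the smallest p for KCl or region (up to 5, or 3 where none was called, and up to 4), the 5 highest correlations, the 3 with most genes and the 5 largest neighbourhoods, with their nearest and best-correlated genes and the fixed lists. Alternatives were other pseudocounts, filters, centring, voom, a replicate block, other rules for the class and leaving out each library.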

Additional observations from a re-analysis of the deposited data

Results flagged for a closer look

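One value stood apart within its group. At chr1:89998442-90001839, the gene-dense TAPE near Uba2, striatum vehicle replicate 8 had 0.346 CPKM while the other 3 vehicle libraries had 0.244 to 0.261. Its gap to the nearest of them was 0.832 of the whole range of the 4 libraries, past Dixon's 95% critical value. In all, 86 sets of libraries were checked in this way, and chance marks about 1 in 20, so a single mark is fewer than chance gives. The decrease at this TAPE had an adjusted p of 0.040 (limma) with all 7 striatum libraries and lost its call when this or any other of them was left out.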

How the results depend on the processing

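Over the alternatives of the comparisons, 119 values stayed close to those reported (counts within 1.5 times) and 17 moved. The number of gene-dense TAPEs called for KCl in hippocampus went from 0 to 1 with a filter of 0.1 CPKM (9 of 867 over all TAPEs). It was 1 with centred libraries (4 of 1870) and 2 in 1 fit of all 6 groups (19 of 1870). In striatum it went from 4 to 0 without a filter (2 of 27538 over all TAPEs) and 2 when the nearest start site had to be 20 kb away. Leaving out 1 library gave 0 to 1 called in striatum and 0 to 0 in cortex and in hippocampus. It gave 46 to 53 for region and 0 to 0 for a KCl effect that differed between regions. Over all 1870 TAPEs, striatum calls likewise fell from 23 to between 0 and 8, and region calls went from 912 to between 852 and 902. In striatum the count of gene-dense TAPEs was 0 without KCl replicate 7 and 1 without each other library. Region dependence was called for 79 of 1110 without a filter (2026 of 27538 over all TAPEs). With a filter of 0.1 it was called for 28 of 68 (482 of 867). The regional difference of the KCl effect was called for 1 of 142 with a pseudocount of 0.2 (7 of 1870). The cause of these shifts was not tested, apart from the number of TAPEs and libraries that each alternative leaves. The share of TAPEs whose nearest gene was best went from 3.24% to 5.63% in tested TAPEs, to 4.53% with at least 35 genes, and to 2.89% to 4.14% without single libraries. No named TAPE changed the sign of a called difference. At unadjusted p, cortex had 6 higher and 10 lower (73 and 122 of all 1870 TAPEs). With centred libraries this turned to 9 and 6 (99 and 90), and without cortex vehicle replicate 3 to 9 and 2 (72 and 80). With the replicate number as a block, 0 were called in cortex and 0 in hippocampus. Deviations of libraries that share a number correlated at -0.0418 to 0.0142. At so few reads per TAPE this value can be small for paired libraries too, so it cannot decide whether the numbers pair them. Striatum titles share no number between treatments. Depth limits what can be tested, since the median gene-dense TAPE held 20 reads.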
